A study of Callithrix jacchus with 20 samples.

Results

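A set of 20 genes out of the 25102 in the count table had a higher RNA level in every library that came from a cjPSCM culture of marmoset iPSCs than in any library that came from a TESR culture. The level is the size-factor normalised count, the number of reads counted on a gene divided by a factor for the library. It is not corrected for the length of the gene, so levels were compared between libraries and not between genes. A gene was chosen when the lowest of its 14 levels after cjPSCM culture was at least 3 times the sum of 1 and the highest of its 6 levels after TESR culture, and when the mean of the 14 was at least 20. Of the 20 genes, 19 had a symbol and 1 had only a LOC name. The opposite rule, with the 6 TESR libraries over the 14, chose 14 genes. Because the genes were chosen by these levels, the difference between the media is described here without a test.

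The libraries were made from poly(A) RNA of iPSCs of the common marmoset (Callithrix jacchus) and of cells derived from them. The labels name no line and no genetic change. Unless it states another, the paper used DPZ_cjiPSC#2, a line reprogrammed from foetal fibroblasts. It names further lines for the adaptation to TESR, so that all libraries came from DPZ_cjiPSC#2 is an inference. TESR is a commercial medium for primed iPSCs. cjPSCM is an N2B27-based medium with CHIR, which inhibits GSK3, A419259, which inhibits SRC family kinases, IWR-1, which stabilises AXIN, and vitamin C, LIF, TGFβ and FGF2. The 6 TESR libraries were cjiPSCs in TESR and pre-ME, a mesendoderm precursor state induced with CHIR, made from these cells with or without ActA (activin A). The 14 libraries from cjPSCM were cjiPSCs in cjPSCM, pre-ME with or without ActA, and cells sorted at day 4 from embryoid bodies that were made from each pre-ME with BMP4, EGF, SCF and LIF. The labels of all day 4 libraries name the medium of the iPSCs cjEPSCM. It was taken here as cjPSCM, which the paper gives for these cells. The surface markers of the sort are INTα6 and EpCAM in the labels and INTα6 and CXCR4 in the published methods. The sorted cells positive for both are called cjPGCLCs, germ cell-like cells, and those negative for both are called soma. Each of the 10 conditions had 2 replicates. The paper calls the replicates biologically independent. If all came from 1 line, as inferred here, the p-values measure the spread between replicates of this line. No sorted cells from TESR cultures were analysed here. The day 4 conditions can thus be compared with one another and with the cjPSCM pre-ME, but not with day 4 cells of TESR origin.

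Primed iPSCs correspond to the epiblast shortly before gastrulation, and the medium sets which lineage genes such cells keep silent, keep at a low level or express. Many genes of blood, endothelium, nervous system and extracellular matrix have a low level in iPSCs and become active only as their lineage forms. The chosen genes belong to several such groups. Among them are the transcription factors GATA2, which serves blood progenitors, endothelium and trophoblast, and SOX21, which acts in neural progenitors. The paper also names GATA2 and GATA3 as the factors through which BMP acts when primate germ cells are specified. Others encode surface receptors (UNC5B, which binds netrins, and CNR1, the cannabinoid receptor of the brain), adhesion and matrix proteins (CNTN1, LAMA2 and ITGA2B) and secreted proteins (HGF, C7, COLEC11 and SRGN). The rest encode enzymes (GAD2, DGKA, ZDHHC2 and PRSS16) and RAI2, NAP1L3, INSYN2B and FAM133A. The LOC gene is LOC103792204.

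The number of reads counted on genes was 8590205 to 22067099 in the TESR libraries and 4784964 to 17491325 in the others, so the libraries with the low levels were on the whole the deeper ones. A level of 3 counts, taken here as the floor, equalled 1.40 to 6.92 normalised counts, which covers counting error only. The replicates of the cjiPSCs in cjPSCM stood further apart than those of the other conditions, with an SD over genes of 0.857 for their log2 difference against 0.230 to 0.530 elsewhere. Of the 20 genes, 13 were higher in replicate 1 of these cjiPSCs. In the cjPSCM pre-ME only 2 were higher in replicate 1 with ActA and 4 without. The number was 3 in the soma without ActA, 16 in the TESR pre-ME with ActA and 5 to 13 in the remaining conditions. The chosen genes thus tended to shift together between replicates, in the pre-ME towards replicate 2. For the sort, CXCR4 lay between 1128 and 1317 in the cjPGCLCs and between 49.5 and 88.5 in the soma and the cjPSCM pre-ME with ActA. It was at 141 and 144 in the cjPSCM pre-ME without ActA. In the TESR pre-ME it was at 170 and 287 with ActA and at 294 and 482 without. ITGA6 and EPCAM, the genes of the other surface markers named for the sort, were also higher in each cjPGCLC library than in any soma library.

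The name "on only after cjPSCM" was not borne out by the levels in TESR. The median over the 6 TESR libraries was at least 10 for 13 of the 20 genes and at least 50 for 5 of them, which are UNC5B, NAP1L3, SOX21, ZDHHC2 and PRSS16. HGF was the single gene with 3 counts or fewer in all 6 TESR libraries. What the genes share by the rule is thus a higher level after cjPSCM, for most of them over a low but measurable level in TESR. The mean of the 14 libraries was 8.23 times the mean of the 6 for ZDHHC2, which had the smallest ratio, and the median ratio was 22.3. The 14 include day 4 cells, which have no TESR counterpart here, so these ratios mix stage with medium. For UNC5B the cjiPSCs had means of 1669 in cjPSCM and 128 in TESR, while its day 4 means were 11491 to 14468. In such bulk RNA, fewer cells that express a gene and less RNA per cell cannot be told apart. For HGF the mean of the 14 was at least 15.7 times the floor of 3 counts per library. That mean was raised by the cjPGCLCs with ActA, at 118, against 7.13 to 29.3 in the other conditions from cjPSCM. The gene nearest to the threshold from inside was ITGA2B, whose lowest level of 31.5 stood over a highest TESR level of 9.33. The nearest gene outside was ADGRB3, an adhesion receptor of neurons, with 60.4 over 19.3.

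**Figure D1:**
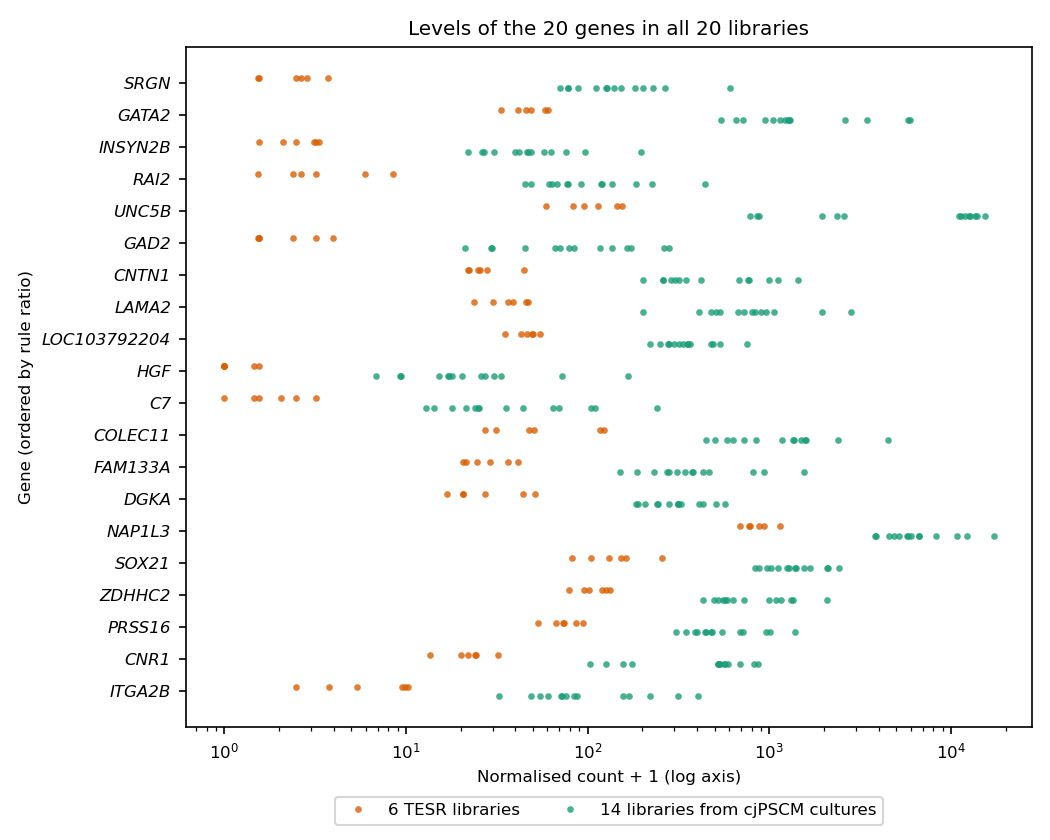
Size-factor normalised count plus 1 (log axis) of the 20 genes, 1 row per gene, in the 6 TESR libraries and the 14 libraries from cjPSCM cultures, with 1 point per library. In each row the points of the 14 libraries lie to the right of those of the 6, which is how the genes were chosen. The TESR points reach from 0 for HGF and C7 to 1138 for NAP1L3.

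The chosen genes kept no common level over the stages after cjPSCM. The highest of the 14 levels of a gene was between 2.88 times (SOX21) and 28.4 times (HGF) its lowest. The condition with the highest mean was the cjiPSCs for 10 genes, the cjPGCLCs with ActA for 5, the cjPGCLCs without ActA for 2, the soma with ActA for 2 and the pre-ME without ActA for 1. The lowest of the cjPSCM conditions was a pre-ME in 13 genes. Their levels are given below gene by gene, in the order of the roles of the proteins.

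GATA2, a zinc finger transcription factor, had a lowest, median and highest level of 32.5, 46.4 and 59.6 in the 6 TESR libraries. In the 14 others these were 542, 1239 and 5937. The cjiPSCs in cjPSCM had 948 and 652, the pre-ME with ActA 1039.7 and 1263 and the pre-ME without ActA 542 and 719. At day 4 the cjPGCLCs with ActA had 2622 and 3454 against 1142 and 1215 in their soma, and those without ActA had 5937 and 5798 against 1279.9 and 1299.6. All 4 cjPGCLC libraries lay above the other 10 libraries from cjPSCM. The gene LOC118147698 overlaps GATA2 in the RefSeq annotation. Its levels were 0.547 to 7.45 in TESR and 17.8 to 917 after cjPSCM, and since the strand setting of the counting is not stated, reads of the pair may have been shared.

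SOX21, a SOX factor that promotes neuronal differentiation, was the gene with the narrowest range, with 80.7, 141 and 256 in the TESR libraries and 834, 1335 and 2400.1 in the others. Its highest group was the soma with ActA, at 2102 and 2400.1, and the cjPGCLCs with ActA had 834 and 1391. RAI2, a nuclear protein first found as induced by retinoic acid, had 0.531, 1.92 and 7.45 in TESR and 44.3, 84.2 and 443 after cjPSCM. It stood at 443 and 225 in the cjiPSCs and at 47.6 and 75.8 in the pre-ME with ActA. NAP1L3 belongs to the nucleosome assembly proteins and was the gene with the highest TESR level, with 685, 827 and 1138 there and 3799, 5913 and 17115 after cjPSCM. FAM133A lies next to NAP1L3 in the RefSeq gene order and had 19.7, 25.9 and 40.2 in TESR and 149.9, 359.6 and 1558 after cjPSCM. Both of these neighbours had their highest library among the cjiPSCs in cjPSCM, NAP1L3 at 17115 and 8234 and FAM133A at 1558 and 377.

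UNC5B, a receptor for netrins in axon guidance and vessel growth, had 58.0, 103 and 153 in TESR and 779.7, 11193 and 15334 after cjPSCM. Its 14 levels fell into a low and a high set. The cjiPSCs had 2559 and 779.7, the pre-ME with ActA 1939 and 2343 and the pre-ME without ActA 872 and 851. The day 4 libraries all stood far above these, with 13602 and 15334 in the cjPGCLCs and 12722 and 13931 in the soma with ActA. Without ActA the cjPGCLCs had 10988 and 11993 and the soma 11397 and 12474. The cjPGCLC and soma libraries overlapped in both protocols. CNR1 had 12.6, 22.0 and 31.3 in TESR, and after cjPSCM it was high in the cjiPSCs, at 870.4 and 568, and in all day 4 libraries, which lay between 519 and 820.0. The pre-ME stood between, at 102 and 125 with ActA and 174 and 156 without it.

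CNTN1, a contactin that links neurons and glia, had 20.9, 24.3 and 43.5 in TESR. It was at 1117 and 765 in the cjiPSCs, at 201 and 259.8 in the pre-ME with ActA, at 315 and 347 in the pre-ME without it, and at 1444 and 989.6 in the cjPGCLCs with ActA. The cjPGCLCs without ActA had 677 and 769, and the 4 soma libraries lay between 258 and 418, below every cjPGCLC library. LAMA2, a laminin chain of muscle and nerve basement membranes, had 22.8, 36.7 and 45.7 in TESR and its highest levels in the cjiPSCs, at 2829 and 1951. The other 12 libraries from cjPSCM lay between 201 and 1063. ITGA2B, the αIIb integrin chain of platelets and megakaryocytes, had 1.49, 6.44 and 9.33 in TESR and 312 and 406 in the cjiPSCs. In the cjPGCLCs it had 75.2 and 86.7 with ActA and 47.8 and 31.5 without, and in the soma 168 and 221 with ActA and 83.0 and 156 without.

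**Figure D2:**
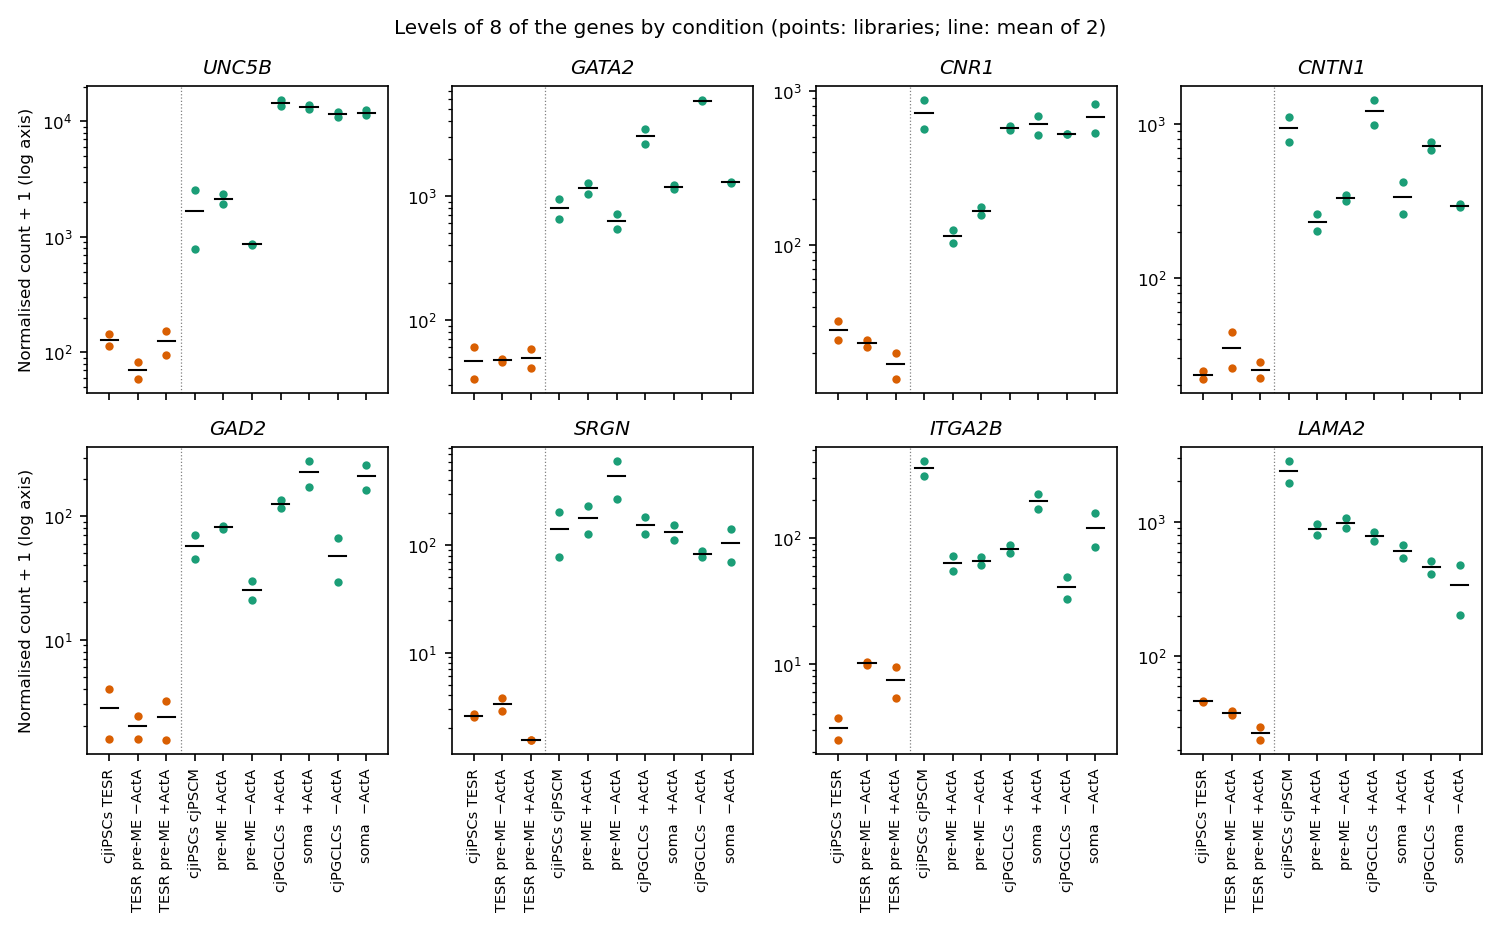
Normalised count plus 1 (log axis) of UNC5B, GATA2, CNR1, CNTN1, GAD2, SRGN, ITGA2B and LAMA2 in each of the 10 conditions, with 1 point per library and a line at the mean of the 2. The dotted line parts the TESR conditions from those after cjPSCM. UNC5B stood at 10988 to 15334 in the 8 day 4 libraries, and CNR1 dipped at the pre-ME, to between 102 and 174.

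Among the secreted proteins, HGF, the ligand of the receptor MET, had at most 1 count in each TESR library. After cjPSCM it had 16.0 and 16.3 in the cjiPSCs, 5.84 and 8.43 in the pre-ME with ActA, 8.25 and 16.8 in the pre-ME without it, and 166 and 71.1 in the cjPGCLCs with ActA. The last pair stood above the other 12 libraries, which reached at most 32.3, and the replicates within it differed by more than 2 times. C7, a component of the terminal complement pathway, had 0, 0.805 and 2.19 in TESR and was highest in the cjPGCLCs with ActA, at 239 and 104. COLEC11, a collectin that starts the lectin pathway of complement, had 26.2, 48.3 and 122 in TESR, where both cjiPSC libraries stood apart at 116 and 122. It had 4501 and 2392 in the cjiPSCs in cjPSCM and between 449.7 and 1595 in the other 12. SRGN, the core protein of a proteoglycan in the granules of blood cells, had 0.531, 1.57 and 2.74 in TESR, the widest gap to the 14 libraries of all chosen genes with a ratio of 18.5 between the lowest of the 14 and the highest of the 6 plus 1. Its highest levels were 267 and 605, in the pre-ME without ActA.

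Of the enzymes, GAD2, which makes the transmitter GABA from glutamate, had 0.531, 0.977 and 2.98 in TESR and 20.04, 80.6 and 279.8 after cjPSCM. The pre-ME without ActA had the lowest levels, 20.04 and 28.7, and the soma the highest, 279.8 and 173 with ActA and 261 and 164 without. INSYN2B, of a family that binds at inhibitory synapses, had 0.551, 1.81 and 2.34 in TESR and 196 and 56.3 in the cjiPSCs in cjPSCM. DGKA, a diacylglycerol kinase, had 15.9, 23.0 and 50.1 in TESR and 183, 312 and 565 after cjPSCM. ZDHHC2, which attaches palmitate to proteins, had 78.1, 109.8 and 132 in TESR and 432, 677 and 2074 after cjPSCM. PRSS16, a serine protease of the thymus, had 52.4, 72.8 and 93.8 in TESR and 307, 481 and 1387 after cjPSCM. LOC103792204 had 34.0, 47.0 and 53.6 in TESR and 219, 343 and 756 after cjPSCM.

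The first tested step was from cjiPSCs in cjPSCM to pre-ME, which asks what the chosen genes did when CHIR with or without ActA replaced the maintenance medium. Most fell. With ActA, 12 of the 20 genes were lower in pre-ME at an adjusted p under 0.05 in edgeR's quasi-likelihood test with Benjamini-Hochberg adjustment, against 10.3% of all 15797 genes tested, and none was higher (1 at an unadjusted p under 0.05), against 7.42%. Without ActA, 15 were lower, against 20.1%, and 1, SRGN, was higher, against 17.9%. At a log2 fold change beyond 2 as well, 5 were lower with ActA (1.64% of all genes) and 5 without (3.16%), and none was higher in either (1.42% and 2.11%). The median log2 fold change of the chosen genes was -1.40 with ActA and -1.25 without, against -0.00 and 0.03 over all genes. Both counts start from the same 2 cjiPSC libraries. These stood further apart than the replicates of any other condition, while the test estimated the spread of a gene over all conditions together. The p-values and counts of this step may thus be too favourable. The rule bounds how far a chosen gene can fall, since each pre-ME library had to stay at 3 times the TESR level. Means are given with the SD of n = 2 libraries, and log2 fold changes with their SE.

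The 12 genes that fell in both protocols included NAP1L3, RAI2 and FAM133A, the adhesion and matrix genes CNTN1, LAMA2 and ITGA2B, the receptor CNR1, the complement genes C7 and COLEC11, ZDHHC2, INSYN2B and LOC103792204. CNR1 fell most with ActA, from 719 ± 214 to 113 ± 16.4 (log2 fold change -2.67 ± 0.25, adjusted p = 2.92e-06). Its fall without ActA was to 165 ± 13.4 (log2 fold change -2.09 ± 0.23, adjusted p = 8.44e-06). ITGA2B fell from 359 ± 66.7 to 62.1 ± 12.4 with ActA (log2 fold change -2.49 ± 0.30, adjusted p = 3.33e-05) and to 64.8 ± 7.57 without it (log2 fold change -2.42 ± 0.29, adjusted p = 1.59e-05). RAI2 fell from 334 ± 154 to 61.7 ± 19.995 with ActA (log2 fold change -2.46 ± 0.36, adjusted p = 0.000182) and to 76.8 ± 20.3 without it (log2 fold change -2.11 ± 0.34, adjusted p = 0.000227). COLEC11 fell to 737 ± 152 without ActA (log2 fold change -2.20 ± 0.23, adjusted p = 4.52e-06) and to 1338 ± 226 with it (log2 fold change -1.36 ± 0.22, adjusted p = 0.000532). None of these 4 genes had overlapping libraries between cjiPSCs and pre-ME, and all kept an adjusted p under 0.05 with any library left out. The size of the fall of RAI2, CNR1 and COLEC11 moved more. Without replicate 1 of the cjiPSCs in cjPSCM, RAI2 had -1.87 with ActA and -1.52 without, CNR1 -1.73 without ActA, and COLEC11 -0.81 with ActA and -1.65 without. NAP1L3 also kept its calls, and went from -1.48 to -0.84 with ActA and from -1.57 to -0.93 without when the same library was left out.

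The falls of C7, INSYN2B and FAM133A rested on fewer libraries. Without replicate 1 of the cjiPSCs in cjPSCM the log2 fold change of FAM133A with ActA was -0.25 with an adjusted p of 0.692, against -1.65 with all libraries, and without ActA it was -0.82 with an adjusted p of 0.0413, against -2.21. The same library took INSYN2B with ActA from -1.99 to -0.77 with an adjusted p of 0.424, and without ActA from -1.85 to -0.64 with an adjusted p of 0.356. C7 with ActA, at -2.27, came to -1.86 with an adjusted p of 0.185 without replicate 1 of that pre-ME, and without ActA it went from -1.56 to -1.28 with an adjusted p of 0.199 without replicate 1 of the other. With that cjiPSC library left out, the number of genes lower at both thresholds was 3 with ActA and 1 without, and without replicate 1 of the pre-ME without ActA it was 3. UNC5B without ActA had a log2 fold change of -0.93 with an adjusted p of 0.0451, but its libraries overlapped, and without replicate 1 of the cjiPSCs the value turned to 0.20 with an adjusted p of 0.561. SRGN rose without ActA from 139 ± 87.4 to 436 ± 239 (log2 fold change 1.64 ± 0.42, adjusted p = 0.00637), and without replicate 2 of that pre-ME its value was 0.95 with an adjusted p of 0.128. GAD2 and DGKA passed without ActA, at -1.19 and -0.58, and came to -0.91 with an adjusted p of 0.232 and -0.48 with an adjusted p of 0.145 without replicate 1 of that pre-ME. GATA2 and SOX21 passed in neither protocol, with log2 fold changes of 0.53 and 0.37 with ActA and -0.32 and -0.31 without.

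Markers of other cells moved along this step. The summed level of the 3 blood and endothelium markers (PTPRC, CDH5 and TIE1) was 144 to 837 in the TESR libraries, 5310 to 15935 in the cjiPSCs in cjPSCM and 1175 to 1897 in their pre-ME, with PTPRC at 0 in both of the cjiPSC libraries. CDH5 was at 11857 and 3403 in these cjiPSCs, again with the higher value in replicate 1. The sum of the 4 fibroblast markers (PDGFRB, THY1, LUM and DCN) was 1316 to 3234 in TESR, 8636 to 14979 in the cjiPSCs in cjPSCM and 3878 to 5182 in their pre-ME. Most of the sum in these cjiPSCs was THY1, a surface protein that pluripotent cells can carry too, at 12832 and 7124. PDGFRB went the other way, with 138 and 422 in the cjiPSCs in cjPSCM against 1008 to 1869 in TESR and 687 to 1016 in the pre-ME. The endoderm markers FOXA2, GATA4 and GATA6 summed to 93.1 to 592 in TESR, 2252 to 2854 in the cjiPSCs in cjPSCM and 367 to 485 in their pre-ME, and most of this was GATA6, at 2821 and 2232 in these cjiPSCs. The 6 mesenchyme markers summed to 16877 to 64237 in TESR, 86370 to 125516 in the cjiPSCs in cjPSCM and 21057 to 52296 in their pre-ME. Most of this was VIM, at 125212 and 84855 in these cjiPSCs, and the other mesenchyme markers did not stand above TESR there. Whether these markers have a part in the levels of the chosen genes was not tested. The 3 neural markers PAX6, SOX1 and NEUROD1 summed to 17.6 to 42.1 in TESR and to at most 22.4 after cjPSCM. SOX1 reached at most 8.92 and NEUROD1 at most 1.98 in any library, and the part of neural cells in the levels of the chosen genes was not tested either.

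**Figure D3:**
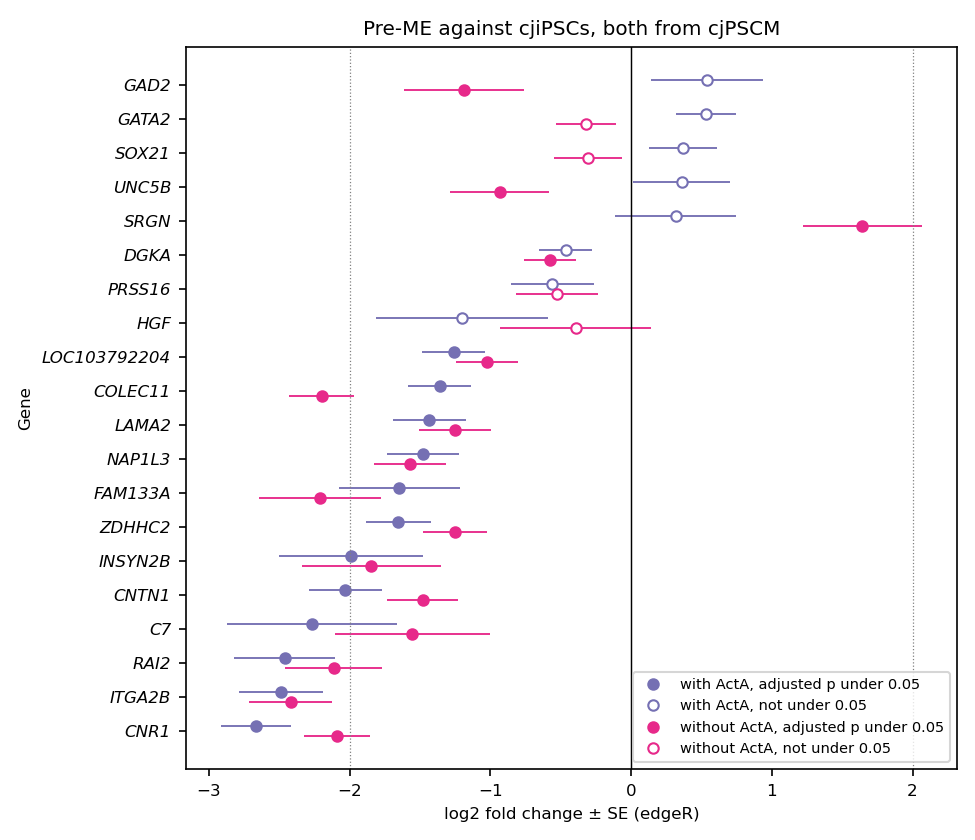
Log2 fold change of each of the 20 genes in pre-ME against cjiPSCs, both from cjPSCM, with ActA and without ActA, as estimated by edgeR, with bars for ± 1 SE. Filled points have an adjusted p under 0.05, and dotted lines mark -2 and 2. CNR1, ITGA2B and RAI2 lie beyond -2 in both protocols, and SRGN is the one filled point to the right of 0.

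Between the pre-ME of both protocols the share of the genes that differed was near that over all genes. None passed both thresholds, where 1.42% of all genes were higher with ActA and 0.69% lower. At the adjusted p alone 4 were higher with ActA, against 11.4% of all genes, and 1 was lower, against 9.54%, and at an unadjusted p under 0.05 these were 5 and 3. GAD2 had 80.6 ± 3.13 with ActA and 24.4 ± 6.14 without (log2 fold change 1.73 ± 0.42, adjusted p = 0.00915). UNC5B, a netrin receptor, had a log2 fold change of 1.29, GATA2 of 0.85, COLEC11 of 0.84 and SRGN of -1.33. None of the 5 kept its call in every fit with a library left out. Without replicate 1 of the pre-ME without ActA, UNC5B came to 1.29 with an adjusted p of 0.0767, GATA2 to 0.64 with an adjusted p of 0.11 and COLEC11 to 0.62 with an adjusted p of 0.135. GAD2 came to 1.44 with an adjusted p of 0.0837 without the same library, and SRGN to -0.64 with an adjusted p of 0.4 without replicate 2 of that pre-ME.

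The comparison of cjPGCLCs with soma asks which of the chosen genes differed at day 4 between the cells positive for both sort markers and those negative for both. With ActA, 8 of the 20 genes were higher in cjPGCLCs at an adjusted p under 0.05, against 3.68% of all genes, and 2 were lower, against 1.16%. Without ActA 5 were higher, against 6.67%, and 3 lower, against 2.96%. At both thresholds 2 were higher with ActA (1.41% of all genes) and 1 without (2.39%), and none and 1 were lower (0.165% and 0.449%). The median log2 fold change of the chosen genes was 0.83 with ActA and 0.49 without, against 0.01 and 0.00 over all genes. GATA2, CNTN1, COLEC11 and ZDHHC2 were higher in cjPGCLCs in both protocols, and SOX21 and ITGA2B were lower in both.

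GATA2 had 3038 ± 588 in cjPGCLCs against 1179 ± 51.6 in soma with ActA (log2 fold change 1.37 ± 0.22, adjusted p = 0.00102). Without ActA it had 5867 ± 97.9 and 1289.7 ± 13.9 (log2 fold change 2.20 ± 0.22, adjusted p = 6.97e-06). CNTN1 had 1217 ± 321 and 338 ± 113 with ActA (log2 fold change 1.87 ± 0.26, adjusted p = 0.00037), and 723 ± 65.4 and 295 ± 9.49 without (log2 fold change 1.31 ± 0.26, adjusted p = 0.00367). These 2 genes kept their calls in both protocols with any library left out. COLEC11 had a log2 fold change of 1.28 with ActA and 1.53 without, and the former was 1.13 with an adjusted p of 0.0659 without replicate 1 of the soma. ZDHHC2 had 1.40 with ActA and 0.88 without, and the latter missed the threshold without any of the 4 libraries it compares, as with 0.75 with an adjusted p of 0.156 without replicate 2 of the cjPGCLCs. The lower levels of SOX21, at -1.01 and -0.80, and of ITGA2B, at -1.26 and -1.55, did not keep their calls either. SOX21 came to -0.68 with an adjusted p of 0.371 without replicate 1 of the cjPGCLCs with ActA and to -0.48 with an adjusted p of 0.458 without replicate 2 of the soma without ActA. ITGA2B came to -1.05 with an adjusted p of 0.251 without replicate 2 of the soma with ActA and to -1.34 with an adjusted p of 0.0569 without replicate 2 of the cjPGCLCs without ActA.

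Some calls were made in 1 protocol. HGF reached the minimum mean of the rule only with the cjPGCLCs with ActA counted in. Its tests of these cells, also in the interaction, thus use libraries that helped to choose it, and are descriptive. HGF had 118 ± 66.9 in cjPGCLCs against 22.1 ± 3.82 in soma with ActA (log2 fold change 2.46 ± 0.47, adjusted p = 0.00611), but without replicate 1 of these cjPGCLCs its value was 1.70 with an adjusted p of 0.145, and without replicate 1 or 2 of the soma it was 2.63 with an adjusted p of 0.0545 or 2.28 with an adjusted p of 0.12. C7 had 171 ± 95.7 and 37.8 ± 36.6 with ActA (log2 fold change 2.24 ± 0.57, adjusted p = 0.0281), and its value was 1.5 with an adjusted p of 0.455 without the same cjPGCLC library and 1.45 with an adjusted p of 0.34 without replicate 2 of the soma. Leaving out either that cjPGCLC library or that soma library brought the number of genes higher at both thresholds from 2 to 0. GAD2 was lower in the cjPGCLCs without ActA, at 46.8 ± 26.1 against 212 ± 68.3 in soma (log2 fold change -2.08 ± 0.39, adjusted p = 0.00231), and remained under the adjusted p of 0.05 with any library left out, while its log2 fold change was -2.88 without replicate 1 of these cjPGCLCs, -1.68 without their replicate 2 and -1.72 without replicate 1 of this soma. PRSS16 was higher without ActA, at 1170.0 ± 307 against 392 ± 121 (log2 fold change 1.57 ± 0.30, adjusted p = 0.00235), and came to 1.30 with an adjusted p of 0.0541 without replicate 1 of the soma. DGKA and NAP1L3 passed with ActA, with log2 fold changes of 0.77 and 0.90, and missed the threshold without any 1 of the 4 libraries compared (NAP1L3 also without most libraries of other conditions), at 0.68 with an adjusted p of 0.236 and 0.80 with an adjusted p of 0.345 without replicate 1 of the cjPGCLCs. UNC5B and CNR1, both high at day 4, had log2 fold changes of 0.13 and -0.06 with ActA and -0.04 and -0.36 without, none of which passed.

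**Figure D4:**
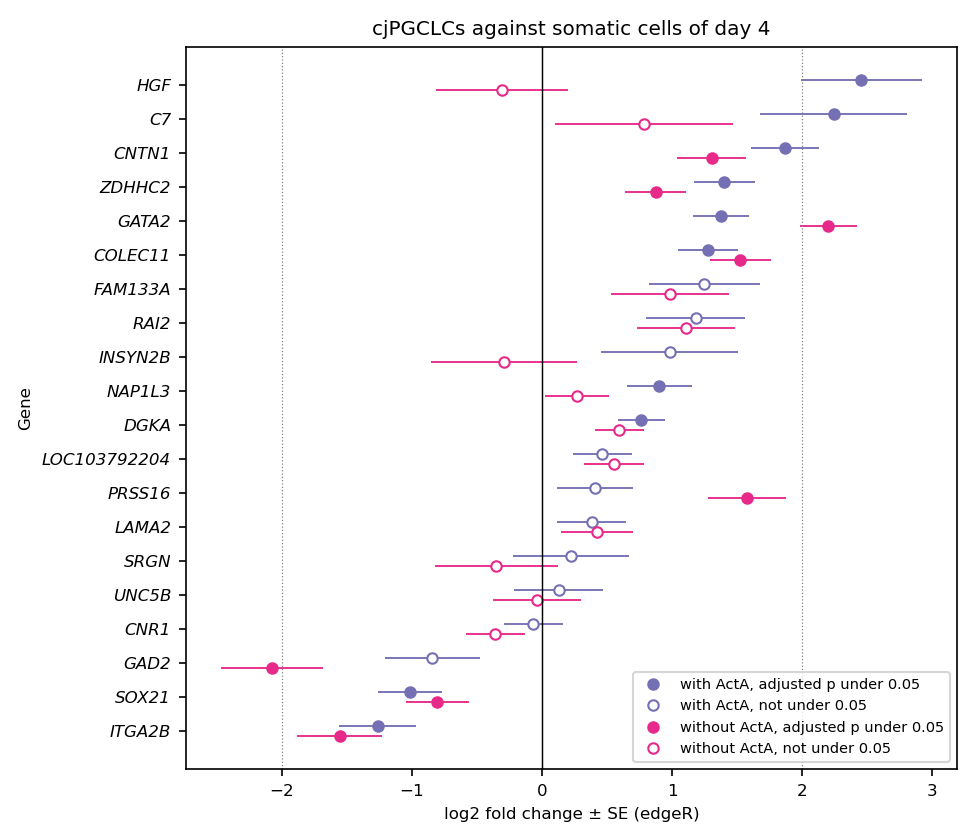
Log2 fold change of each of the 20 genes in cjPGCLCs against soma of day 4, with ActA and without ActA, as estimated by edgeR, with bars for ± 1 SE. Filled points have an adjusted p under 0.05, and dotted lines mark -2 and 2. GATA2, CNTN1, COLEC11 and ZDHHC2 lie right of 0 with filled points in both protocols, and SOX21 and ITGA2B lie left of 0.

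Whether the sort effect of a gene differed between the protocols was tested as an interaction. No chosen gene passed an adjusted p of 0.05 in edgeR, where 0.0253% of all genes passed with a higher and 0.038% with a lower effect with ActA, and none passed in DESeq2, with smallest adjusted p of 0.217 and 0.147. At an unadjusted p under 0.05 there were 4 chosen genes in each of these tools, GATA2, GAD2, HGF and PRSS16. With no filter on low counts, 3 passed in edgeR, HGF with a difference of 2.76 on the log2 scale (adjusted p = 0.00249), PRSS16 with -1.16 (adjusted p = 0.00373) and GATA2 with -0.82 (adjusted p = 0.0493). Markers of other cells differed between the sorted populations too. The 4 fibroblast markers summed to 3559 to 6759.7 in the cjPGCLCs and 10584 to 13410.2 in the soma, and each of them was lower in the cjPGCLCs within both protocols. Of the 5 primordial germ cell markers SOX17, TFAP2C, PRDM1 and NANOS3 were higher in each cjPGCLC library than in any soma library, and KIT was not. The endoderm markers were divided. FOXA2 was at 83.9 to 518 in the cjPGCLCs and at most 4.61 in the soma, but GATA4 overlapped between the populations in both protocols. GATA6 overlapped with ActA, and without it had 2397 and 1792 in the cjPGCLCs against 3139 and 2865 in the soma. Of the mesenchyme markers, TWIST1, SNAI2 and COL1A1 were lower in the cjPGCLCs in both protocols. HAND1 overlapped without ActA, and COL3A1 and VIM overlapped with ActA. Of the blood and endothelium markers, PTPRC was at 25.2 to 46.9 in the cjPGCLCs and at most 4.47 in the soma. CDH5 and TIE1 were lower in the cjPGCLCs in both protocols. So were GATA3 and ISL1 of the amnion and trophectoderm markers. TFAP2A overlapped with ActA and was higher in the cjPGCLCs without it, and CGA was at most 1.58 in all sorted cells. The part of such other cells in the levels of GATA2, CNTN1, COLEC11 and ZDHHC2 was not tested.

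From pre-ME to day 4 most of the chosen genes that changed rose, and both day 4 populations are set against the same pre-ME libraries, so their values stand side by side. In cjPGCLCs with ActA 14 were higher than in pre-ME, against 25.3% of all genes, and none lower (1 at an unadjusted p under 0.05), against 23%. Without ActA 9 were higher, against 21.5%, and 2 lower, against 18.5%. In soma 6 were higher with ActA (23.8%) and 7 without (20.6%), while 1 and 3 were lower (24.2% and 21.7%). At both thresholds 5 and 2 were higher in cjPGCLCs (6.15% and 5.77% of all genes) and 2 and 3 in soma (5.29% and 4.99%). Lower at both thresholds was SRGN alone, in both populations without ActA (2.11% of all genes in cjPGCLCs and 2.96% in soma), and no gene with ActA (2.22% and 3.01%). The median log2 fold change was 1.35 in cjPGCLCs with ActA and 0.90 without, and 0.46 and 0.18 in soma, against 0.04, 0.01, 0.01 and 0.00 over all genes. Markers of other cells moved at this step too. The amnion and trophectoderm markers with counts (GATA3, TFAP2A, ISL1, HAND1 and CGA) summed to 699 to 986 in the cjPSCM pre-ME and 6879.7 to 11967 at day 4, with CGA at 7.93 or less in these libraries. The endoderm markers FOXA2, GATA4 and GATA6 went from 367 to 485 in pre-ME to 2657 to 6237 at day 4, while the 4 fibroblast markers had 3878 to 5182 in pre-ME, 3559 to 6759.7 in cjPGCLCs and 10584 to 13410.2 in soma. HAND1 is on the mesenchyme list too. Of that list, TWIST1 had 32.7 to 97.6 in the cjPSCM pre-ME and 1459 to 3927 at day 4. SNAI2 had 82.2 to 87.1 and 1098 to 2564, and COL3A1 had 81.8 to 166 and 651 to 6119. COL1A1 and VIM overlapped between these stages. The part of all these markers in the levels of the chosen genes at day 4 was not tested.

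UNC5B had the most marked rise shared by both populations. It went from 2141 ± 285 in pre-ME with ActA to 14468 ± 1225 in cjPGCLCs (log2 fold change 2.76 ± 0.36, adjusted p = 1.54e-05) and 13327 ± 855 in soma (log2 fold change 2.63 ± 0.36, adjusted p = 2.24e-05). Without ActA it went from 862 ± 15.2 to 11491 ± 711 (log2 fold change 3.72 ± 0.38, adjusted p = 1.4e-06) and 11936 ± 762 (log2 fold change 3.76 ± 0.38, adjusted p = 1.13e-06). CNR1 rose with ActA to 575 ± 21.6 in cjPGCLCs (log2 fold change 2.36 ± 0.25, adjusted p = 1.5e-06) and 604 ± 120.2 in soma (log2 fold change 2.42 ± 0.25, adjusted p = 1.17e-06), and without ActA by log2 fold changes of 1.65 and 2.01. Both genes kept an adjusted p under 0.05 with any library left out, and the value of CNR1 in soma without ActA was 1.64 without replicate 2 of the soma. DGKA rose in all 4 comparisons, by 1.34 and 1.10 in cjPGCLCs and by 0.58 and 0.51 in soma, and its soma calls did not hold without replicate 2 of the soma, at 0.55 with an adjusted p of 0.0934 and 0.28 with an adjusted p of 0.413.

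GATA2 rose in the cjPGCLCs without ActA from 630.5 ± 125 to 5867 ± 97.9 (log2 fold change 3.21 ± 0.23, adjusted p = 2.29e-08) and with ActA from 1151 ± 158 to 3038 ± 588 (log2 fold change 1.40 ± 0.21, adjusted p = 5.92e-05). In soma its log2 fold change was 1.01 without ActA (adjusted p = 0.00139) and 0.03 with ActA (adjusted p = 0.919). CNTN1 rose in cjPGCLCs (log2 fold change 2.42 ± 0.26, adjusted p = 2.2e-06 with ActA, and log2 fold change 1.11 ± 0.25, adjusted p = 0.00218 without), and in soma its values were 0.55 and -0.19, which did not pass. HGF and C7 rose in cjPGCLCs with ActA, HGF from 7.13 ± 1.83 (log2 fold change 4.10 ± 0.52, adjusted p = 1.92e-05) and C7 from 18.6 ± 7.44 (log2 fold change 3.27 ± 0.59, adjusted p = 0.000276). Without replicate 1 of these cjPGCLCs the values were 3.34 for HGF and 2.53 for C7. The 2 pre-ME libraries held 7 and 6 reads of HGF, so the size of that rise is coarse. The rise of HGF is also descriptive, since HGF reached the minimum mean of the rule only with these cjPGCLCs counted in. GAD2 rose in soma without ActA from 24.4 ± 6.14 to 212 ± 68.3 (log2 fold change 3.10 ± 0.42, adjusted p = 1.92e-05), and with ActA by 1.48, which came to 1.09 with an adjusted p of 0.0684 without replicate 1 of the soma. The other genes higher in cjPGCLCs of both protocols than in pre-ME were RAI2, at 1.07 with ActA and 0.95 without, ZDHHC2, at 1.42 and 0.70, and PRSS16, at 0.99 and 1.55. NAP1L3, FAM133A, INSYN2B and LOC103792204 passed with ActA, at 1.35, 1.51, 1.40 and 0.67. Of the 14 genes higher with ActA, 9 kept the call with any library left out, and of the 9 without ActA, 6 did. RAI2 missed it in both protocols, at 0.75 with an adjusted p of 0.22 without replicate 1 of the pre-ME with ActA and 0.66 with an adjusted p of 0.258 without replicate 1 of the pre-ME without it. PRSS16 with ActA came to 0.49 with an adjusted p of 0.227 without replicate 2 of the cjPGCLCs, and ZDHHC2 without ActA to 0.52 with an adjusted p of 0.171 without replicate 1 of the pre-ME. FAM133A came to 1.36 with an adjusted p of 0.0766 without replicate 1 of the pre-ME with ActA, INSYN2B to 1.03 with an adjusted p of 0.207 without its replicate 2, and LOC103792204 to 0.46 with an adjusted p of 0.19 without replicate 2 of the cjPGCLCs.

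In soma, ITGA2B rose from pre-ME by 1.62 with ActA (adjusted p = 0.000367) and by 0.87 without. The latter came to 0.29 with an adjusted p of 0.594 without replicate 2 of the soma. SOX21 rose without ActA by 0.79, which came to 0.44 with an adjusted p of 0.263 without the same library, and HGF rose with ActA by 1.65, which came to 1.36 with an adjusted p of 0.208 without replicate 1 of the pre-ME.

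SRGN and LAMA2 went the other way without ActA. SRGN fell from 436 ± 239 in pre-ME to 82.3 ± 7.15 in cjPGCLCs (log2 fold change -2.40 ± 0.44, adjusted p = 0.000442) and 104 ± 49.5 in soma (log2 fold change -2.05 ± 0.45, adjusted p = 0.00157). It kept an adjusted p under 0.05 with any library left out, but without replicate 2 of the pre-ME its values were -1.72 in cjPGCLCs and -1.37 in soma, and the latter was -1.68 and -2.70 without replicate 1 and 2 of the soma. LAMA2 fell from 983 ± 114 to 459.6 ± 70.0 (log2 fold change -1.12 ± 0.26, adjusted p = 0.00299) and 339 ± 195 (log2 fold change -1.54 ± 0.27, adjusted p = 0.000293). The latter was -1.08 without replicate 1 of the soma, and -2.35 without its replicate 2. With ActA both genes had log2 fold changes of -0.20 and -0.16 in cjPGCLCs and -0.42 and -0.55 in soma, none of which passed. COLEC11 fell in soma with ActA, from 1338 ± 226 to 655 ± 100.2 (log2 fold change -1.03 ± 0.23, adjusted p = 0.00148), and rose in cjPGCLCs without ActA by 0.87 (adjusted p = 0.00533), which came to 0.65 with an adjusted p of 0.0793 without replicate 1 of the pre-ME. In soma without ActA COLEC11 had a log2 fold change of -0.65 (adjusted p = 0.0337), and this came to -0.44 with an adjusted p of 0.24 without replicate 2 of the pre-ME.

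The position of the genes was looked up in the RefSeq gene order of another marmoset assembly, in which 19 of the 20 were found. NAP1L3 and FAM133A were the single pair of chosen genes next to each other. There were 24 direct neighbours with a mean of at least 20 in the 14 libraries or in the 6. Of these, 6 were at least 2 times higher on average after cjPSCM than in TESR, with 1 added to each mean. Over all genes with such a mean it was 1353 of 13527. The 6 include LOC118147698, which overlaps GATA2 and may share its reads, and MYO3A and SEMA3C, which only just passed at 2.09 and 2.08. The median ratio of the neighbours was 1.10 against 0.993. Day 4 cells enter these means too, so the ratios mix stage with medium. PDZRN4, beside CNTN1, had a mean of 13.2 in TESR and 167 after cjPSCM, and CARD6, beside C7, had 8.01 and 76.9. GATA2, INSYN2B, GAD2, CNTN1, LAMA2, C7, COLEC11 and PRSS16 overlap other annotated genes there, so their counts may hold reads of these. DOCK2, which overlaps INSYN2B, had means of 0.771 and 2.52.

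None of the 144 genes with counts on 17 lists of known markers and pathways was among the chosen genes. The rule chose 20 of all 25102 genes, and at that share the absence says nothing particular about the lists. The X inactivation list had no gene with counts and the nerve list none with a mean of at least 20 after cjPSCM, so neither could hold a chosen gene. The marker lists were those of pluripotent cells, primordial germ cells, mesenchyme, amnion and trophectoderm, endoderm, nerve, fibroblasts, and blood and endothelium. Others held genes of naive and formative pluripotency, LIF and STAT3 signalling, lipid transport, hypoxia and glycolysis, and imprinting. The last held cadherins and claudins, and genes of X inactivation, the methylated germline and placental viral envelopes. The listed gene nearest to the rule was LUM, a fibroblast marker, with a ratio of 2.14 between the lowest of the 14 and the highest of the 6 plus 1. After it came BCL3 with 1.87, DCN, another fibroblast marker, with 1.60, and ANPEP with 1.54.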

How the data were processed

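RNA-seq counts of 20 libraries of 10 conditions were used, with 2 replicates in each. Per the submitters' processing notes and the paper, paired-end reads were checked with FastQC 0.11.8, mapped with STAR 2.7.0a to calJac4 and counted with HTSeq 0.11. The strand setting and the release of the annotation are not given in the sources used here. The authors deposited raw counts per gene and a normalised signal, in which each library was scaled with its DESeq2 size factor. Lines for reads outside genes (10.6% to 23.2% of the counted reads) and for ambiguous reads were left out. The share outside genes was 12.2% in replicate 1 and 19.3% in replicate 2 of the cjiPSCs in cjPSCM. It was 10.6% and 13.3% in the cjiPSCs in TESR and at least 17.2% in all other conditions. Whether it has a part in the differences between these replicates was not tested. The labels name EpCAM for the sort where the paper names CXCR4, and conditions followed the labels.

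The normalised signal chose the genes and gave all levels. For the tests, edgeR 4.0.16 (R 4.3.3) was fitted to the raw counts (quasi-likelihood method, TMM, filter on low counts by condition, 1 coefficient per condition over all 20 libraries, 10 residual degrees of freedom). The filter left 15797 genes, with all 20 chosen genes among them. P-values were adjusted by Benjamini-Hochberg within each of 9 comparisons and 1 interaction, and the thresholds were an adjusted p of 0.05, alone or with a log2 fold change beyond 2. The script was tested on simulated data. All chosen genes with a symbol were named, and the others were named as neighbours of the threshold, as overlapping or adjacent genes, as genes of the lists or as label checks. PDZRN4, CARD6 and DOCK2 were picked after their values were seen. The genes, rule and lists were chosen with earlier results of these data known. One listed marker is not reported here. Alternatives were DESeq2 1.42.0, its size factors in edgeR, no filter on low counts, the replicate number as a block, each library left out in turn, and other limits or TMM scaling for the rule. Gene order came from the RefSeq annotation of calJac240_pri, a build other than that of the counts, so no coordinates are given. Python 3.11.15 with pandas 2.3.3, numpy 2.4.6 and matplotlib 3.10.9 served for tables and figures.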

Additional observations from a re-analysis of the deposited data

How the results depend on the processing

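The rule chose 50 genes at 2 times in place of 3 and 6 at 5 times (SRGN, GATA2, INSYN2B, RAI2, UNC5B and GAD2), and 20 to 26 with a library left out. The counts of called genes per comparison stayed within 1.5 times under DESeq2, its size factors, no filter and the replicate block, other than the interaction with no filter, where 3 genes passed in place of 0. With a library left out, the number of genes lower in pre-ME than in cjiPSCs ranged from 3 to 7 with ActA and from 1 to 7 without, and the number higher without ActA from 0 to 1. In cjPGCLCs against soma 0 to 3 were higher with ActA, and without it 1 was higher and 0 to 1 lower. Against pre-ME, cjPGCLCs had 5 to 6 genes higher with ActA, and 2 higher and 0 to 1 lower without, and soma had 2 higher with ActA, and 2 to 3 higher and 0 to 2 lower without. All other such counts were 0, also under DESeq2. UNC5B in pre-ME without ActA against cjiPSCs ranged from -1.56 to 0.20 with a library left out, the latter a reversal without replicate 1 of the cjiPSCs in cjPSCM, and the cause was not tested. Of 93 pairs of a gene and a comparison past the adjusted p, 93 were kept under DESeq2 and under its size factors, 91 with no filter (DGKA lost in 2), and 53 in each of the 20 fits with a library left out. In 11 of these 53 the fold moved by more than 1.5 times without 1 library.

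The replicate numbers are shared by the conditions, but nothing says that they mark a common culture. The deviations of libraries with the same number correlated between -0.242 and 0.332 over the comparisons. The paper sorted both day 4 populations from embryoid bodies, so cjPGCLCs and soma of the same number and protocol may be pairs. Their deviations correlated at 0.200 with ActA and 0.118 without. The block holds 1 replicate effect for all conditions, so it does not account for such pairs. The replicate block kept 91 of the 93 pairs and lost UNC5B in pre-ME without ActA against cjiPSCs (-0.89, adjusted p = 0.0576) and NAP1L3 in cjPGCLCs against soma with ActA (0.90, adjusted p = 0.059). With the numbers of the cjiPSCs in cjPSCM crossed, an alternative chosen after seeing the data, 92 were kept. With 2 libraries per condition, genes with few reads, such as HGF, C7 and INSYN2B, had the widest errors.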
